A study of Mus musculus with 20 samples.

Results

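A set of 9 complement genes was followed through mouse kidney tumours raised from MSRT1 cells: C1qa, C1qb, C1qc, C1ra, C4b, C3, Cfb, Serping1 and C3ar1. They were taken by name from a table of 34234 genes, and all 9 passed the filter of at least 1 TPM in at least 5 libraries that kept 15422 genes for testing. The tumours are labelled as renal medullary carcinoma, and MSRT1 is a single line, so the mice are replicates of the treatment and not of the tumour. GYY_PD1 mice received GYY4137, a slow-releasing donor of hydrogen sulfide, with an antibody against the checkpoint receptor PD1. GYY_IgG mice received GYY4137 with control IgG, Veh_PD1 mice received vehicle with the PD1 antibody, and Veh_IgG mice received vehicle with control IgG. Each group held 5 mice and each mouse gave 1 library of total RNA from its tumour.

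Complement is a cascade of plasma and tissue proteins that marks targets and recruits immune cells. In its classical branch, C1q (built from the products of C1qa, C1qb and C1qc) binds antibody or a damaged surface, the proteases C1r and C1s attached to it cleave C4 and C2, and the resulting convertase cleaves C3. Factor B (Cfb), activated by factor D (Cfd), supplies the protease of the alternative branch's convertase. The C1 inhibitor Serping1 blocks C1r and C1s, and C3ar1 is the receptor of the C3a fragment. The liver makes most of the plasma pool, whereas in many tumours C1q is made chiefly by macrophages and the later components by tumour and stromal cells. Several of these genes, Serping1, C3, C4b and Cfb among them, are known interferon or cytokine targets.

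Values were transcript shares scaled to a constant total (TPM), corrected for gene length. They keep no read numbers, and the sequencing depth is therefore unknown. Libraries differed in how much of the total went to ordinary genes: the 13 satellite-like gene models took between 25.8% and 83.4% of TPM in GYY_PD1, 5.86% and 54.9% in GYY_IgG, 1.63% and 59.6% in Veh_PD1, and 3.53% and 13.2% in Veh_IgG. GYY_PD1 replicates 1 and 4 stood apart, with only 8198 and 6659 genes at 1 TPM or more, against at least 11517 in each of the other 18 libraries. Differences that involve GYY_PD1 are therefore given with and, for the genes named with a test, also without these 2 libraries. As deposited, the typical tested gene differed from Veh_IgG by -2.09 log2 units in GYY_PD1, -0.40 in GYY_IgG and -0.90 in Veh_PD1 (medians over genes). Relative levels and differences below are therefore log2 values from which each library's own median over the tested genes had been taken away, called relative to the library median. All 7 markers fixed for the tumour label passed the filter. Vim averaged 282 TPM in GYY_PD1, 541 in GYY_IgG, 335 in Veh_PD1 and 695 in Veh_IgG, and Krt8 averaged 78.0, 192, 104 and 244 TPM in those groups. Smarcb1, the chromatin gene typically lost in renal medullary carcinoma, averaged 11.1, 27.1, 13.0 and 30.1 TPM in these groups, in tissue that holds host cells as well as MSRT1 cells. These are bulk samples, in which fewer cells of a type and less RNA per cell cannot be told apart.

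The members lie on 4 mouse chromosomes (mm10, GENCODE M21). C1qb (chr4:136880129-136886187), C1qc (chr4:136889804-136893065) and C1qa (chr4:136895917-136898803) are neighbours on the minus strand. C4b (chr17:34728380-34743882, minus strand) and Cfb (chr17:34856374-34862518, minus strand) both lie in the class III region of the major histocompatibility complex, and C3 (chr17:57203970-57228136, minus strand) lies further along the same chromosome. C1ra (chr6:124512405-124523443, plus strand), C3ar1 (chr6:122847138-122856161, minus strand) and Serping1 (chr2:84765387-84775444, minus strand) have no other member beside them. The levels of C4b and C1ra are uncertain to the extent that reads were divided with their near-identical copies C4a and C1rb. Cfb is overlapped on its own strand by the read-through model Gm20547 (chr17:34856412-34882042), which also runs into the neighbouring C2, so its level carries the same uncertainty.

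Promoter sequence was at hand for 5 of the 9 members in RefSeq (GRCm38.p6, 250 bases before to 50 after the start): C1qb, C1qc, C1ra, C3 and C3ar1. C1qa, C4b, Cfb and Serping1 are the other 4. The promoters of C1qb and C1qc are shown as those of the C1q chains at hand, and those of C1ra and C3ar1 because their transcripts formed the closest pair outside C1q by Pearson's r, over all 20 libraries and without the 2 that stood apart. They were searched on both strands for the interferon-gamma-activated site TTCNNNGAA, the interferon-stimulated response element (GAAA, any 2 bases, GAAA) and the kappa B pattern (GGG, any 5 bases, CC), and capitals mark every match, with overlapping matches joined. The first sequence lies at chr4:136886151-136886450 and the second at chr4:136892865-136893164, both on the minus strand, the third at chr6:124512371-124512670 on the plus strand and the last at chr6:122856108-122856407 on the minus strand.
C1qb: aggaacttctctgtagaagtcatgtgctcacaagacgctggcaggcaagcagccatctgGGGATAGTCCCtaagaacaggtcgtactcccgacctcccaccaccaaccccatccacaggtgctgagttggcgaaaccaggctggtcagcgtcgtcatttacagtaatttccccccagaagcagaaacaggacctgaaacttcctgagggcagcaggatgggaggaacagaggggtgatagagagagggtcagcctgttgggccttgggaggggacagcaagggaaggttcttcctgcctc
C1qc: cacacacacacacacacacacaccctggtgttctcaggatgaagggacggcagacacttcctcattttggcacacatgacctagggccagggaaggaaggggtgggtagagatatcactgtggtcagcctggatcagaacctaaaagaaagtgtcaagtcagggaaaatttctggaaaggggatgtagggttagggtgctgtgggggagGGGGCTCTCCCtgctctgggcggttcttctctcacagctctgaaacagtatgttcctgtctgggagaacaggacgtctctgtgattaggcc
C1ra: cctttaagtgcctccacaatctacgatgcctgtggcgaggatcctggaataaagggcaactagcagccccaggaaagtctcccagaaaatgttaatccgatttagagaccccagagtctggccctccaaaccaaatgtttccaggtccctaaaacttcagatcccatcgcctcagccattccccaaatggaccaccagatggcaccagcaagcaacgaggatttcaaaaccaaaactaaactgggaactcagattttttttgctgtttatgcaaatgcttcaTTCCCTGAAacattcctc
C3ar1: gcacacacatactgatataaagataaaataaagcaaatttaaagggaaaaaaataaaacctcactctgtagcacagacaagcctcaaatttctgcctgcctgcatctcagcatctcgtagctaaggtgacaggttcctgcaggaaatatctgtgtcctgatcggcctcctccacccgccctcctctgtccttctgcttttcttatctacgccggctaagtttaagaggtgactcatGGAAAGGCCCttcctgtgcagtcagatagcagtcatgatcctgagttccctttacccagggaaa

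The activated-site pattern was found in 1 of the 5 promoters, that of C1ra, where TTCCCTGAA begins 32 bases from the start site. Among all 32851 promoters of the same 300 bases, 8.30% held it. The kappa B letters occurred in 4 of the 5 (C1qb, C1qc, C3 and C3ar1), but they are common, being present in 50.8% of all promoters. The response element was in none of the 5 and in 3.44% of all promoters. These are matches of letters in a window, not binding sites.

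The 9 genes differed widely in level. Averaged over the 20 libraries, C3 had 128 TPM, Serping1 113, C1qb 102, C1qa 98.8 and C1qc 81.4, followed by C4b with 25.8, C3ar1 with 14.1, C1ra with 10.2 and Cfb with 1.07. In Veh_IgG tumours C3 averaged 165 ± 38.8 TPM, C1qb 156 ± 47.0, C1qa 152 ± 51.9, C1qc 131 ± 47.2 and Serping1 125 ± 65.0 (SD, n = 5), and the order among these 5 was not larger than their spread. C3 exceeded 97.7% of tested genes there. C4b, the precursor of the classical convertase, averaged 32.9 ± 14.5 TPM, C3ar1 19.7 ± 8.28 and C1ra 13.5 ± 3.00, and the ranges of these neighbours overlapped. Cfb stood clear of the rest at 1.25 ± 0.406 TPM, above only 9.30% of tested genes. It was in last place among the 9 in 19 of the 20 libraries, with C1ra last in GYY_PD1 replicate 1, and it reached 1 TPM in 9 libraries, spread over GYY_PD1, GYY_IgG and Veh_IgG.

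**Figure D1:**
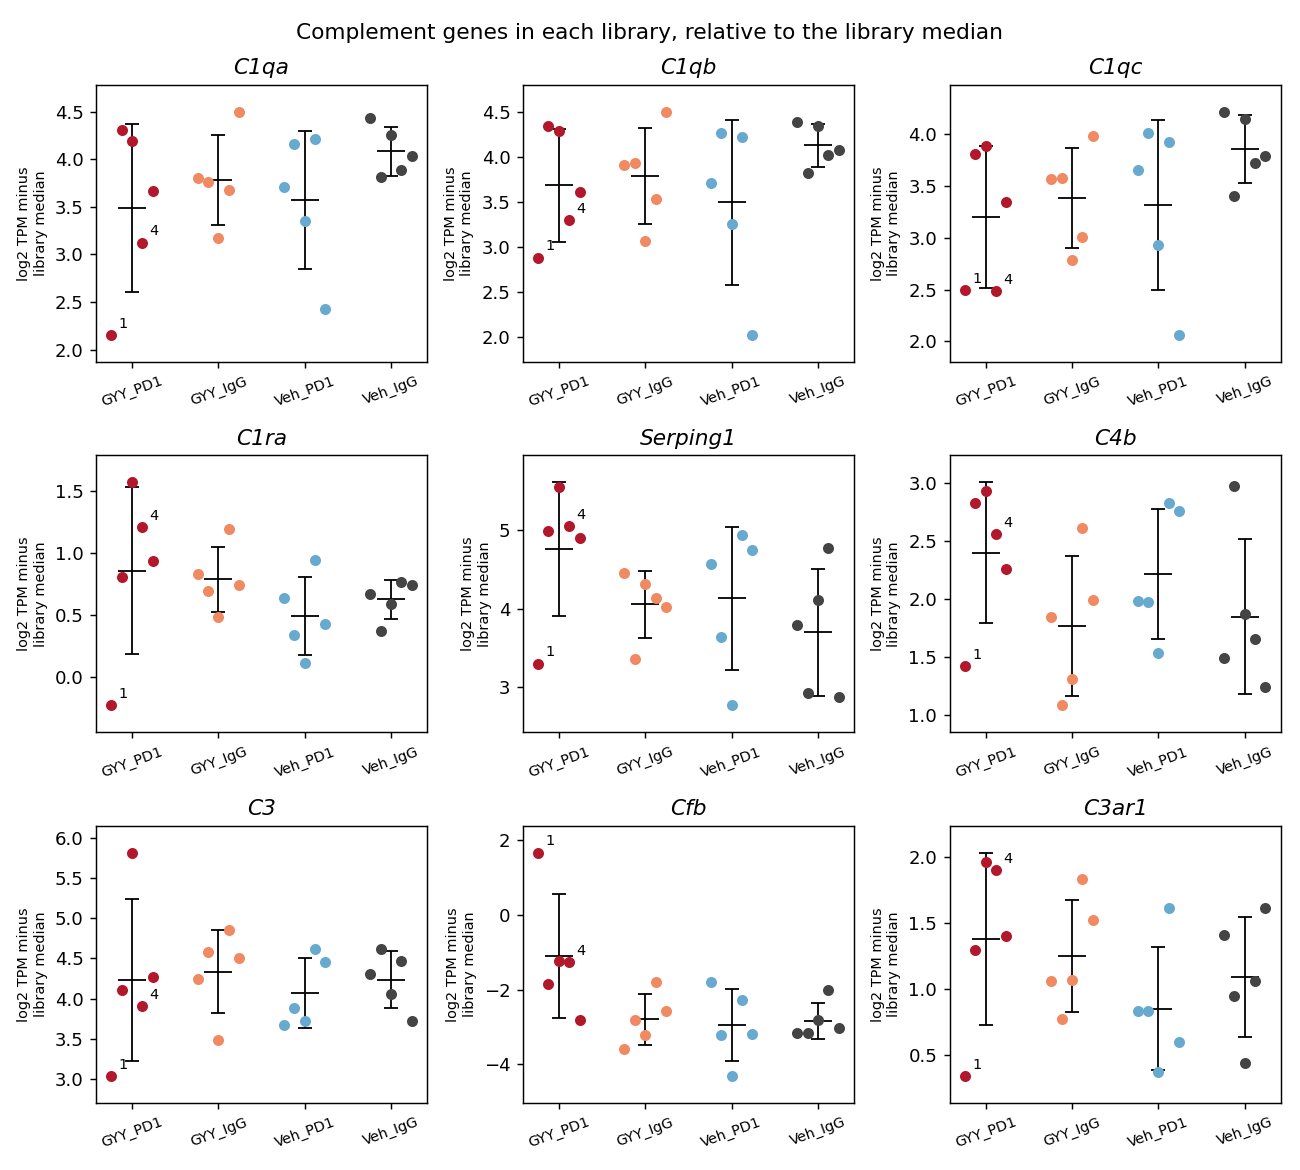
Level of each complement gene in every library, as log2 TPM minus the library median (vertical axis), by group; points are mice, bars mean and SD (n = 5), and the numerals 1 and 4 mark the GYY_PD1 libraries that stood apart. C1q points reach down to 2.16 in GYY_PD1 (C1qa, replicate 1) and to 2.03 in Veh_PD1 (C1qb, replicate 5). For Serping1 the GYY_PD1 points other than replicate 1 lie between 4.90 and 5.55.

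The C1q chains, the recognition unit of the classical branch, were not called in any comparison relative to the library median. Without that subtraction, all 3 were called lower in GYY_PD1 than in Veh_IgG (limma, adjusted p = 0.0240 for C1qa, 0.0264 for C1qb and 0.0236 for C1qc). On that scale 69.9% of all tested genes were also called lower, and the median over all tested genes differed by -2.09. C1qa had 2.62, 114, 95.6, 6.89 and 55.0 TPM in GYY_PD1 and 142, 143, 30.7, 43.4 and 221 TPM in GYY_IgG. It had 37.7, 159, 75.7, 75.2 and 16.1 TPM in Veh_PD1, against 237, 104, 153, 116 and 150 TPM in Veh_IgG. The Veh_IgG tumours were thus uniformly high, while each of the other groups held tumours from low to high, and all groups overlapped. Relative to the library median, C1qa stood at 2.16, 4.31, 4.19, 3.12 and 3.67 in GYY_PD1, against 4.44, 3.82, 4.25, 3.89 and 4.03 in Veh_IgG, so that the lowest values of both groups were those of GYY_PD1 replicates 1 and 4. Veh_PD1 replicate 5 was also low, at 2.43 for C1qa, 2.03 for C1qb and 2.06 for C1qc. The difference of GYY_PD1 from Veh_IgG was -0.59 ± 0.38 for C1qa, -0.45 ± 0.38 for C1qb and -0.66 ± 0.37 for C1qc (log2, SE; limma, adjusted p = 0.377, 0.473 and 0.339). Without GYY_PD1 replicates 1 and 4 these differences were -0.03 ± 0.34, -0.05 ± 0.41 and -0.18 ± 0.37 (limma, adjusted p = 0.993, 0.992 and 0.950). In the single treatments C1qa differed from Veh_IgG by -0.30 in GYY_IgG and -0.51 in Veh_PD1, C1qb by -0.34 and -0.63, and C1qc by -0.47 and -0.54, with exact permutation p between 0.119 and 0.270.

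Beside this, the summed level of the 12 macrophage markers ranged from 6.59 to 7.85 relative to the library median in GYY_PD1, 6.81 to 7.998 in GYY_IgG, 6.34 to 7.18 in Veh_PD1 and 7.22 to 7.65 in Veh_IgG (log2). All 12 markers passed the filter and none was called, with 3 higher and 9 lower in GYY_PD1 than in Veh_IgG, and 10 higher and 2 lower without GYY_PD1 replicates 1 and 4. The median difference of all tested genes was -0.17 with all libraries and -0.04 without those 2 (log2). Lyz2, the most abundant of the 12 markers, averaged 294 TPM in GYY_PD1, 557 in GYY_IgG, 354 in Veh_PD1 and 766 in Veh_IgG. Correlations with a list, here and below, use the mean relative level of its tested markers, not the summed level. Over the 20 libraries the relative level of C1qa correlated with the macrophage list at r = 0.84, C1qb at 0.88 and C1qc at 0.78. Without GYY_PD1 replicates 1 and 4 the correlations were 0.90, 0.88 and 0.81. These are descriptions over points that share library and composition. The part of macrophage content in the C1q values was not tested further.

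The 3 chains, which assemble in equal numbers in the protein, kept nearly fixed proportions. C1qa made up 35.1% ± 2.95 of the summed C1q TPM, C1qb 36.2% ± 2.52 and C1qc 28.7% ± 2.40 (mean and SD over 20 libraries), while the sum itself ran from 10.3 to 669 TPM. Among the libraries farthest from these means, GYY_PD1 replicate 1 had 25.5% C1qa and 42.3% C1qb, GYY_PD1 replicate 4 had 23.2% C1qc, and Veh_PD1 replicate 5 had 39.5% C1qa and 29.9% C1qb. C1qb correlated with C1qa at r = 0.94 and with C1qc at 0.96 over the 20 libraries, and at 0.99 and 0.97 over the 18.

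**Figure D2:**
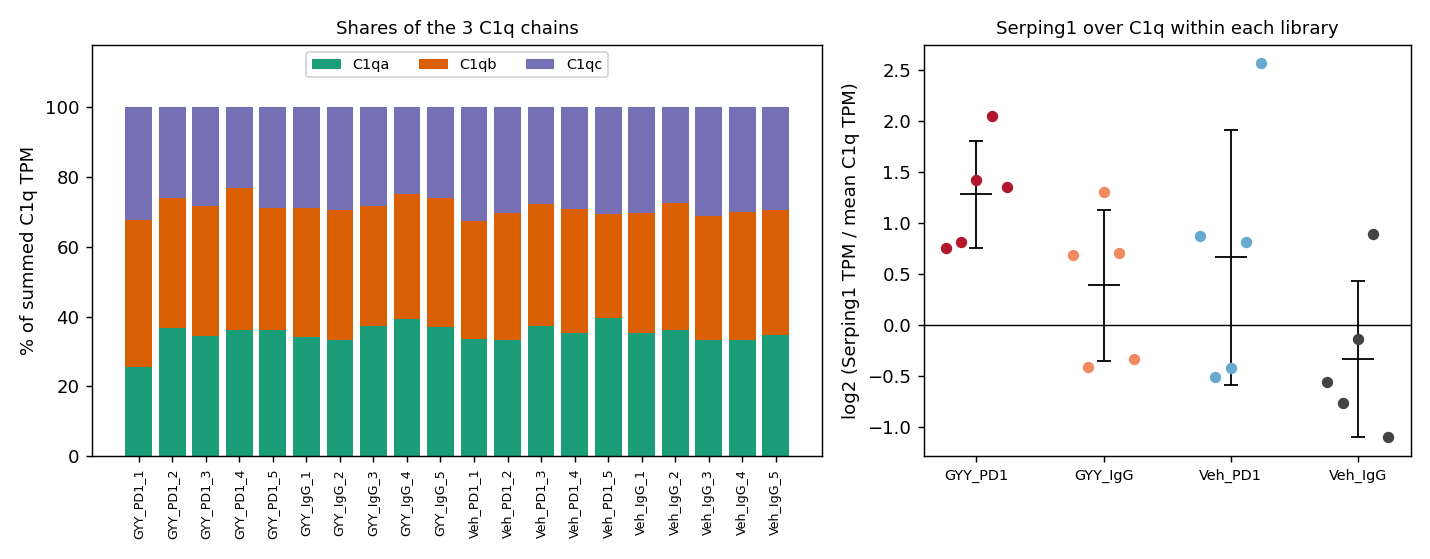
Left, share of each C1q chain in the summed C1q TPM (%, vertical axis) for each library; right, log2 ratio of Serping1 TPM to the mean TPM of the C1q chains by group, points being mice and bars mean and SD (n = 5). Serping1 exceeds mean C1q in 5 of 5 GYY_PD1 libraries, 3 of 5 GYY_IgG, 3 of 5 Veh_PD1 and 1 of 5 Veh_IgG.

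Serping1, the C1 inhibitor, differed most from Veh_IgG in GYY_PD1 among the 5 members averaging over 50 TPM, relative to the library median, and it did not pass the test. It had 5.79, 183, 246, 26.4 and 129 TPM in GYY_PD1, 223, 108, 67.7, 59.6 and 158 in GYY_IgG, and 68.5, 111, 50.3, 124.5 and 80.5 in Veh_PD1. The Veh_IgG tumours had 151, 56.1, 139, 214 and 67.04 TPM. Relative to the library median it stood at 3.30, 4.99, 5.55, 5.06 and 4.90 in GYY_PD1, against 3.79, 2.92, 4.12, 4.78 and 2.88 in Veh_IgG. All GYY_PD1 tumours but replicate 1 were above the highest Veh_IgG tumour, and with replicate 1 the groups overlapped. The difference was 1.07 ± 0.47 (log2, SE; limma, p = 0.0341, adjusted p = 0.279; exact permutation p = 0.0873), and -0.85 on the deposited scale. Without replicates 1 and 4 it was 1.45 ± 0.48, all 3 remaining GYY_PD1 tumours were above all 5 Veh_IgG tumours, and the adjusted p was 0.458 by limma (exact permutation p = 0.0536). By comparison, 3.20% of all tested genes were higher without overlap in that smaller comparison. Against GYY_IgG, GYY_PD1 was 0.70 ± 0.47 higher on the log2 scale (limma, adjusted p = 0.464), and without replicates 1 and 4 it was 1.09 higher with no overlap (exact permutation p = 0.0179, the smallest that 3 against 5 can give), where 1.43% of tested genes were higher without overlap. Against Veh_PD1, Serping1 in GYY_PD1 was 0.63 ± 0.47 higher on the log2 scale (limma, adjusted p = 0.480, and exact permutation p = 0.262). Without replicates 1 and 4 it was 1.02 higher, and the groups still overlapped (exact permutation p = 0.125). In the single treatments Serping1 differed from Veh_IgG by 0.36 ± 0.47 in GYY_IgG and by 0.44 ± 0.47 in Veh_PD1 (log2, SE; limma, adjusted p = 0.9999 in both).

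Set against its target complex within each library, a ratio that no scaling alters, Serping1 exceeded the mean of the C1q chains in all 5 GYY_PD1 tumours, in 3 of 5 GYY_IgG, in 3 of 5 Veh_PD1 and in 1 of 5 Veh_IgG. The log2 ratio was 0.76, 0.82, 1.42, 2.05 and 1.35 in GYY_PD1, against -0.56, -0.77, -0.13, 0.89 and -1.10 in Veh_IgG. These groups overlapped through Veh_IgG replicate 4. The ratio ran from -0.42 to 1.30 in GYY_IgG and from -0.51 to 2.57 in Veh_PD1. Veh_PD1 replicate 5 held the highest ratio of the 20 libraries. Serping1 and the C1q chains did not vary together, with r between 0.01 and 0.09 over the 20 libraries. The log2 ratio of Serping1 to C1ra, one of the proteases it inhibits, averaged 3.90 ± 0.24 in GYY_PD1, 3.27 ± 0.48 in GYY_IgG, 3.64 ± 0.66 in Veh_PD1 and 3.07 ± 0.75 in Veh_IgG (SD, n = 5). These ratios are given as description, with no test.

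C1ra, the protease that starts the classical cascade, had 0.502, 10.02, 15.6, 1.82 and 8.25 TPM in GYY_PD1 and 18.03, 17.0, 4.74, 7.75 and 16.3 TPM in GYY_IgG. It had 4.49, 11.3, 8.01, 7.84 and 4.03 TPM in Veh_PD1, against 17.4, 9.56, 12.03, 13.3 and 15.2 TPM in Veh_IgG. Relative to the library median, 4 of the 5 GYY_PD1 tumours were above every Veh_IgG tumour, and replicate 1, at -0.23, was below them all. The difference of GYY_PD1 from Veh_IgG was 0.23 ± 0.25 (log2, SE; limma, adjusted p = 0.572), but -1.68 on the deposited scale, where it and 69.9% of tested genes were called lower (limma, adjusted p = 0.0455 for C1ra). Without replicates 1 and 4 it was 0.48 ± 0.20, with each remaining GYY_PD1 tumour above every Veh_IgG tumour (exact permutation p = 0.0179; limma, adjusted p = 0.586), a lack of overlap shared by 3.20% of tested genes. In GYY_IgG it differed by 0.16 ± 0.25 and in Veh_PD1 by -0.13 ± 0.25 (log2, SE), neither past the threshold. C1s1, its partner protease, was the most abundant of the other initiation genes at 19.7 ± 18.4 TPM in GYY_PD1, 31.6 ± 15.96 in GYY_IgG, 16.5 ± 7.50 in Veh_PD1 and 33.7 ± 7.88 in Veh_IgG (SD, n = 5), and differed by -0.09 ± 0.38 in GYY_PD1 relative to the library median and by 0.65 ± 0.16 without replicates 1 and 4 (log2, SE; limma, adjusted p = 0.288 in the smaller comparison).

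C4b, cleaved next by the C1 complex, had 1.58, 40.6, 40.1, 4.66 and 20.7 TPM in GYY_PD1, against 30.8, 58.0, 29.3, 24.7 and 21.7 TPM in Veh_IgG. Relative to the library median it was 0.55 ± 0.37 higher in GYY_PD1 than in Veh_IgG and 0.82 ± 0.40 higher without replicates 1 and 4 (log2, SE; limma, adjusted p = 0.389 and 0.630), and on the deposited scale the difference was -1.36. A single Veh_IgG tumour, replicate 2 at 2.97, was above every GYY_PD1 tumour, and the groups overlapped. It differed from Veh_IgG by -0.08 in GYY_IgG and by 0.37 in Veh_PD1 on the log2 scale. Averaged over vehicle and GYY4137, the PD1 antibody groups were 0.50 ± 0.26 higher than the IgG groups (limma, adjusted p = 0.606), and 0.64 ± 0.26 higher without those 2 libraries (limma, adjusted p = 0.829). Its near-identical copy C4a was the gene whose pattern was most like it (r = 0.84 over 20 libraries), and the log2 ratio of C4b to C4a averaged 3.54 in GYY_PD1, 3.54 in GYY_IgG, 3.66 in Veh_PD1 and 3.54 in Veh_IgG. Whether reads were divided between the copies was not tested.

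C3, the hub on which all branches converge, had 4.85, 98.8, 295, 11.9 and 83.7 TPM in GYY_PD1 and 193, 251.6, 38.2, 98.0 and 222 TPM in GYY_IgG. It had 37.0, 131, 97.7, 99.6 and 65.5 TPM in Veh_PD1, against 217, 182, 133, 173 and 121 TPM in Veh_IgG. GYY_PD1 replicate 3 held the highest level of the 20 tumours, and replicate 1 the lowest. Relative to the library median the means of GYY_PD1 and Veh_IgG were 4.23 ± 1.00 and 4.24 ± 0.36 (SD, n = 5), a difference of -0.01 ± 0.38 (SE; limma, adjusted p = 0.991), and without replicates 1 and 4 it was 0.49 ± 0.37 (limma, adjusted p = 0.790). On the deposited scale it was -1.92 and called lower (limma, adjusted p = 0.0473), as were 69.9% of tested genes. It differed by 0.10 ± 0.38 in GYY_IgG and by -0.17 ± 0.38 in Veh_PD1. In replicate 3 adipocyte and fibroblast markers were also high. The 6 listed adipocyte genes summed to 618 TPM there, against 2.89 to 21.2 TPM in the other GYY_PD1 tumours and 5.89 to 82.6 TPM in Veh_IgG. The 8 fibroblast genes summed to 626 TPM there, against 8.93 to 92.4 TPM in the other GYY_PD1 tumours and 55.9 to 366 TPM in Veh_IgG. Kidney proximal tubule genes summed to 83.8 TPM there, against 1.33 to 18.5 TPM in the other GYY_PD1 tumours and 9.45 to 99.6 TPM in Veh_IgG. Over the 20 libraries C3 correlated with the fibroblast list at r = 0.44 and with the adipocyte list at 0.38, and over the 18 at 0.57 and 0.49. Adipoq, a defining adipocyte marker, averaged 17.0 TPM in GYY_PD1 and 1.31 in Veh_IgG, and the part of RNA from these cells in the C3 level was not tested.

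Cfb, the alternative-branch protease, was near the lower limit of measurement. It had 1.86, 1.58, 2.23, 0.328 and 0.620 TPM in GYY_PD1, 0.841, 1.499, 0.364, 0.979 and 1.63 in GYY_IgG, and 0.827, 0.967, 0.375, 0.839 and 0.326 in Veh_PD1. Veh_IgG tumours had 1.21, 0.831, 1.15, 1.93 and 1.12 TPM. In TPM the groups overlapped throughout, and relative to the library median Cfb stood at 1.66, -1.86, -1.23, -1.27 and -2.80 in GYY_PD1, against -3.17, -3.15, -2.81, -2.02 and -3.03 in Veh_IgG. Replicate 1, whose median gene was under 1 TPM, was the highest of all, and the groups overlapped. The difference was 1.73 ± 0.65 (log2, SE; limma, p = 0.0162, adjusted p = 0.254; exact permutation p = 0.0159), the smallest of the 45 exact p-values computed for the 9 genes, and on the deposited scale the difference was -0.18. Without replicates 1 and 4 it was 0.87 ± 0.54 (limma, adjusted p = 0.739; exact permutation p = 0.0536). GYY_PD1 also lay 1.86 ± 0.65 above Veh_PD1 and 1.70 ± 0.65 above GYY_IgG (limma, adjusted p = 0.335 and 0.461; exact permutation p = 0.0397 and 0.0476), and 0.99 and 0.83 above them without those libraries (exact permutation p = 0.179 in both). The interaction of the treatments was 1.82 ± 0.93 (limma, adjusted p = 0.875), and 0.96 ± 0.71 without them (limma, adjusted p = 0.999). GYY_IgG and Veh_PD1 differed from Veh_IgG by 0.04 ± 0.65 and -0.12 ± 0.65.

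C3ar1, the C3a receptor found on macrophages and other myeloid cells, had 0.749, 14.1, 20.4, 2.95 and 11.4 TPM in GYY_PD1 and 21.2, 18.1, 7.12, 12.02 and 28.01 TPM in GYY_IgG. It had 5.18, 15.97, 9.62, 12.4 and 4.53 TPM in Veh_PD1, against 29.0, 14.3, 10.9, 16.3 and 28.01 TPM in Veh_IgG. The groups overlapped on this scale and relative to the library median. The relative difference from Veh_IgG was 0.29 ± 0.31 in GYY_PD1, 0.46 ± 0.30 in GYY_PD1 without replicates 1 and 4, 0.15 ± 0.31 in GYY_IgG and -0.24 ± 0.31 in Veh_PD1 (log2, SE), and none passed the threshold. On the deposited scale the difference of GYY_PD1 was -1.63. The closest correlate of C3ar1 was Itgb2, the beta chain shared by the leukocyte integrins that act as complement receptors (r = 0.86 over 20 libraries), and C1ra came next (r = 0.86), whereas over the 18 libraries Abcg1 and Itgb2 were closest (0.87 for both).

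Across the 8 comparisons (5 between groups, the average of each treatment and the interaction), 0 of the 9 complement genes had an adjusted p under 0.05 with limma. The share of all tested genes called was 0.00648% (1 gene) in GYY_PD1 against Veh_PD1 and 0% in the other 7. At an unadjusted p under 0.05, 2 of the 9 (Cfb and Serping1) were counted in GYY_PD1 against Veh_IgG, where 16.9% of tested genes were, and 0 of 9 were counted in GYY_IgG (1.15% of tested genes) or Veh_PD1 (1.77% of tested genes) against Veh_IgG. The median difference of the 9 genes was 0.23 in GYY_PD1, 0.04 in GYY_IgG and -0.17 in Veh_PD1, beside -0.17, -0.01 and -0.04 for all tested genes. Of the 45 exact tests, 3 gave p under 0.05, all of them for Cfb. Without GYY_PD1 replicates 1 and 4, 2 of 27 did, for C1ra against Veh_IgG and for Serping1 against GYY_IgG. The exact tests are unadjusted and were run for the 9 members only, so no share of all tested genes stands beside these counts. The 3 for Cfb share the 5 GYY_PD1 tumours. The 3 comparisons with Veh_IgG share its 5 tumours.

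**Figure D3:**
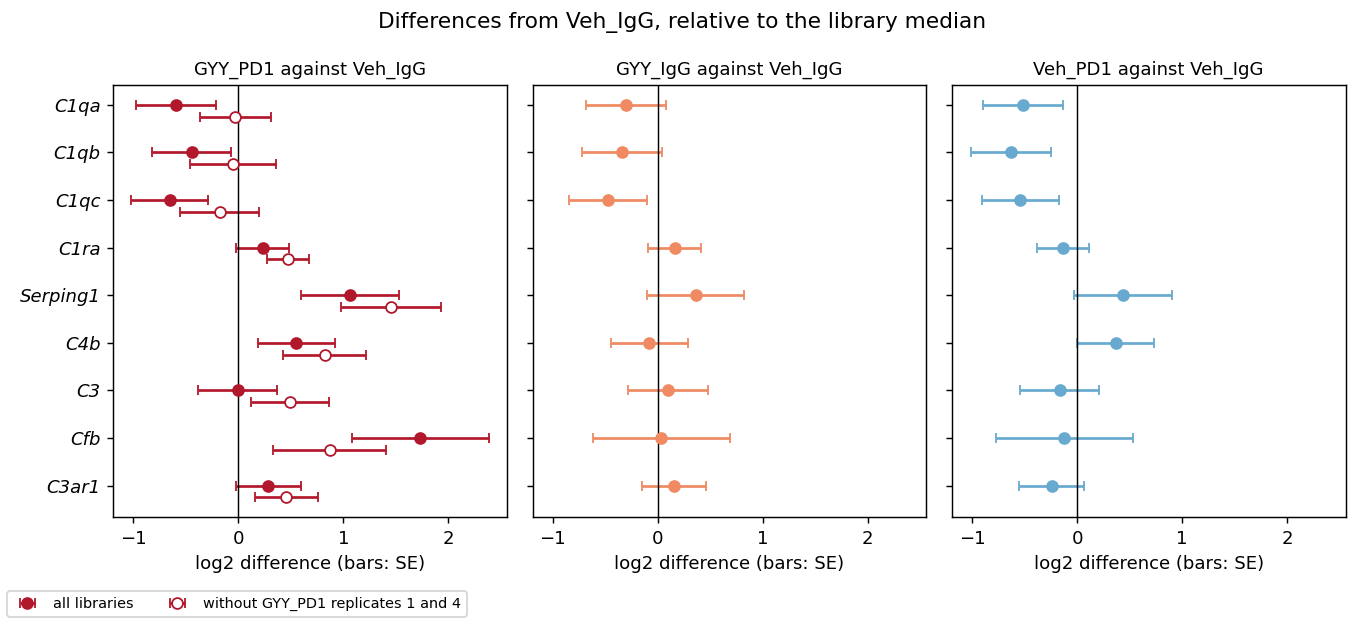
Difference of GYY_PD1, GYY_IgG and Veh_PD1 from Veh_IgG for each complement gene, in log2 units relative to the library median (horizontal axis), with bars of 1 SE from limma; open points leave out GYY_PD1 replicates 1 and 4. Serping1 (1.07) and Cfb (1.73) lie farthest to the right in GYY_PD1 (on the deposited scale they are -0.85 and -0.18), and the C1q chains move to near 0 in the open points.

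The scale decided 1 comparison. On the deposited log2 TPM, where nothing was subtracted, 5 of the 9 genes were lower in GYY_PD1 than in Veh_IgG by limma with an adjusted p under 0.05, where 69.9% of all tested genes were also lower. These were C1qa (-2.51), C1qb (-2.36), C1qc (-2.57), C1ra (-1.68) and C3 (-1.92). The median of all tested genes differed by -2.09 in that comparison, so C1ra and C3 lay above it and the C1q chains below it. On that scale C4b (-1.36), Serping1 (-0.85), Cfb (-0.18) and C3ar1 (-1.63) were also lower in GYY_PD1 without passing, the opposite direction to that relative to the library median.

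Of 46 other complement genes on the lists, 26 passed the filter and none was called in any of the 8 comparisons with limma. In GYY_PD1 against Veh_IgG, 13 of the 26 had a higher and 13 a lower mean, with a median of 0.02 beside 0.23 for the 9 members (16 higher, 10 lower and a median of 0.24, beside 0.48, without replicates 1 and 4), and 5 of the 26 had an unadjusted p under 0.05 beside 16.9% of all tested genes. The median over all tested genes was -0.17, and -0.04 without those libraries. Among the 7 tested initiation genes, C2, the partner of C4b in the convertase, differed by 0.46 ± 0.22 (log2, SE; limma, adjusted p = 0.292), and averaged 6.88 ± 4.84 TPM in GYY_PD1 and 13.5 ± 2.53 in Veh_IgG (SD, n = 5). Without replicates 1 and 4 it differed by 0.38 ± 0.16 (limma, adjusted p = 0.586). Fcna, a ficolin of the lectin branch, differed by -0.62 ± 0.38 and Masp1, its protease, by 0.30 ± 0.65 (-0.65 and 0.17 without those libraries). Cfd, the adipose-rich protease that activates factor B, averaged 60.0 ± 129 TPM in GYY_PD1 and 6.65 ± 13.5 TPM in Veh_IgG. Its highest GYY_PD1 value was 290 TPM. Properdin (Cfp), which stabilises the convertase of the alternative branch, averaged 10.8 ± 9.12 and 24.1 ± 4.08 TPM in these groups. Relative to the library median, Cfd averaged 0.98 ± 2.94 in GYY_PD1 and -2.92 ± 2.86 in Veh_IgG (log2, SD, n = 5). On that scale Cfp averaged 1.36 ± 0.80 and 1.48 ± 0.25.

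Of the fluid-phase and surface regulators, 2 of 7 tested had a higher mean and 5 a lower mean in GYY_PD1 than in Veh_IgG, and 1 had a higher and 6 a lower mean without replicates 1 and 4. Clusterin (Clu), an inhibitor of the membrane attack complex, averaged 67.4 ± 60.9 TPM in GYY_PD1, 188 ± 140 in GYY_IgG, 132 ± 78.1 in Veh_PD1 and 224 ± 45.3 in Veh_IgG (SD, n = 5), a relative difference of -0.75 ± 0.34 in GYY_PD1 and -0.34 ± 0.32 without replicates 1 and 4. Cr1l (the rodent membrane regulator Crry) differed by -0.48 ± 0.17, Cpn1, the carboxypeptidase that inactivates C3a, by -0.96 ± 0.42, and Cd59a, an inhibitor of the membrane attack complex, by -0.58 ± 0.31, and none of the 4 was called. Without replicates 1 and 4 these differences were -0.18 for Cr1l, -0.58 for Cpn1 and -0.46 for Cd59a. Among the terminal components only 2 of 7 passed the filter, C6 and C8g, and their group means were at most 1.57 TPM; Hc (C5) and C7 were below it. Of the receptors 8 of 10 passed, led by C1qbp, a C1q-binding protein, with 27.5 ± 20.6 TPM in GYY_PD1 and 74.3 ± 19.9 in Veh_IgG, and with relative differences of the 8 between -0.47 and 0.73 in GYY_PD1. Relative to the library median C1qbp hardly differed, at 3.02 ± 0.16 in GYY_PD1 and 3.07 ± 0.26 in Veh_IgG (log2, SD, n = 5). Itgb2 differed by 0.42 ± 0.25, Lrp1, which takes up C1q-coated material, by 0.15 ± 0.33, and C5ar1, the C5a receptor, by -0.13 ± 0.36 (0.50, 0.45 and -0.03 without replicates 1 and 4).

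**Figure D4:**
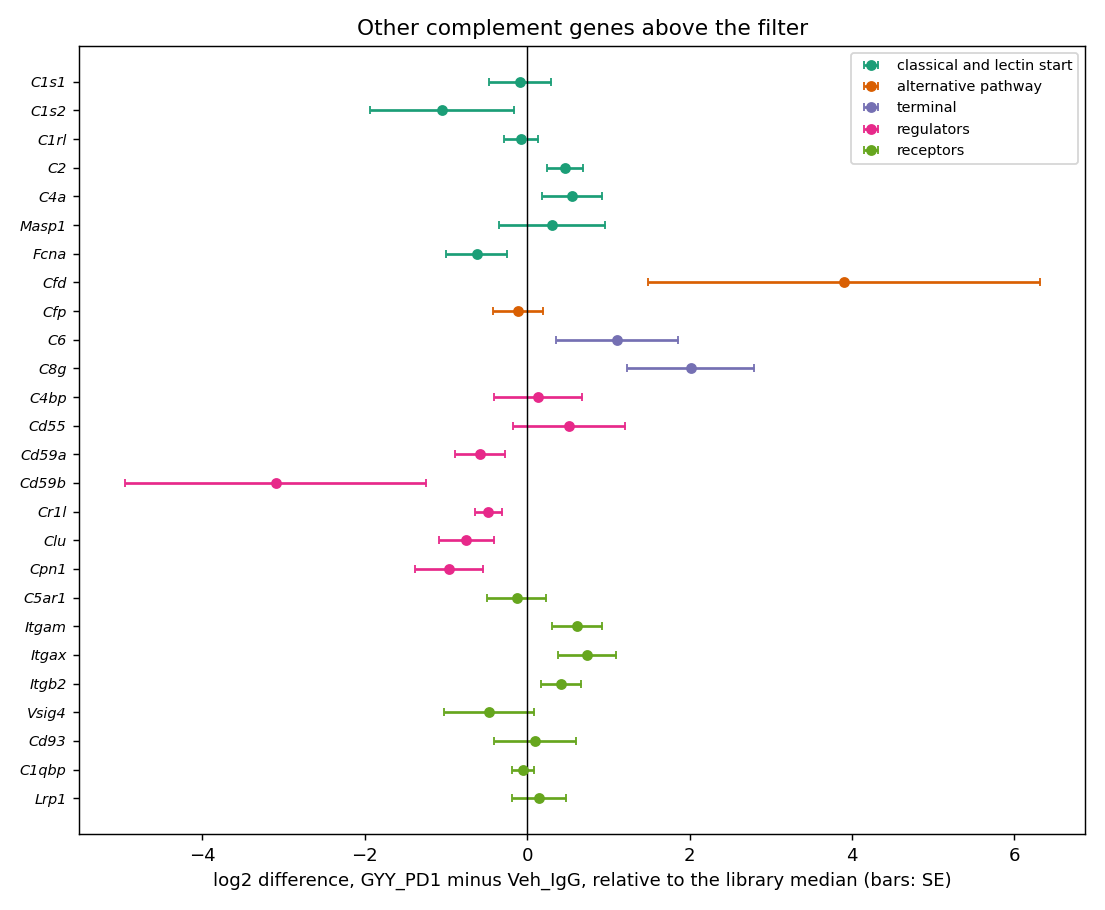
Difference of GYY_PD1 from Veh_IgG for the 26 other complement genes above the filter, in log2 units relative to the library median (horizontal axis), with bars of 1 SE from limma and colours by role. Points lie on both sides of 0, and the widest bar belongs to Cfd, whose difference is 3.90.

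Variation between tumours divided the 9 genes into a C1q block and a looser set. C1ra, C3 and C3ar1 correlated at r between 0.53 and 0.86, C1ra with Serping1 at 0.68 and C4b with C3 at 0.56, over 20 libraries that share composition. Cfb correlated with C1ra at 0.00 over the 20 libraries and at 0.77 over the 18. With C3, Serping1 and C3ar1 it correlated at -0.13, 0.23 and 0.10 over the 20, and at 0.55, 0.66 and 0.59 over the 18. Its low correlations with these genes over the 20 libraries thus depended on GYY_PD1 replicates 1 and 4. By likeness of pattern over the tested genes in 20 libraries, C3 was closest to Tgfbr3, Aebp1 and Abca1 (r = 0.88, 0.87 and 0.87), C1ra to Shisa5, Apbb1ip and Wipf1 (0.90, 0.90 and 0.89), Serping1 to Tnfrsf23, Mark4 and Tnfrsf26 (0.83, 0.78 and 0.76), and Cfb to Irak3, Arhgef40 and Slc11a1 (0.93, 0.92 and 0.92). Outside C1q itself, C1qa and C1qc were closest to Ifi30 (0.86 and 0.84) and C1qb to Rab3il1 (0.86). These neighbours changed when GYY_PD1 replicates 1 and 4 were left out: Cfb was then closest to D16Ertd472e, Creb3l1 and Irak3 (0.88, 0.87 and 0.86), C1qa outside C1q to Fermt3 (0.87), C1qb to Ctsf (0.89) and C1qc to Srsf9 (0.86), while C3 stayed closest to Tgfbr3 (0.90) and Serping1 to Tnfrsf23 (0.82).

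**Figure D5:**
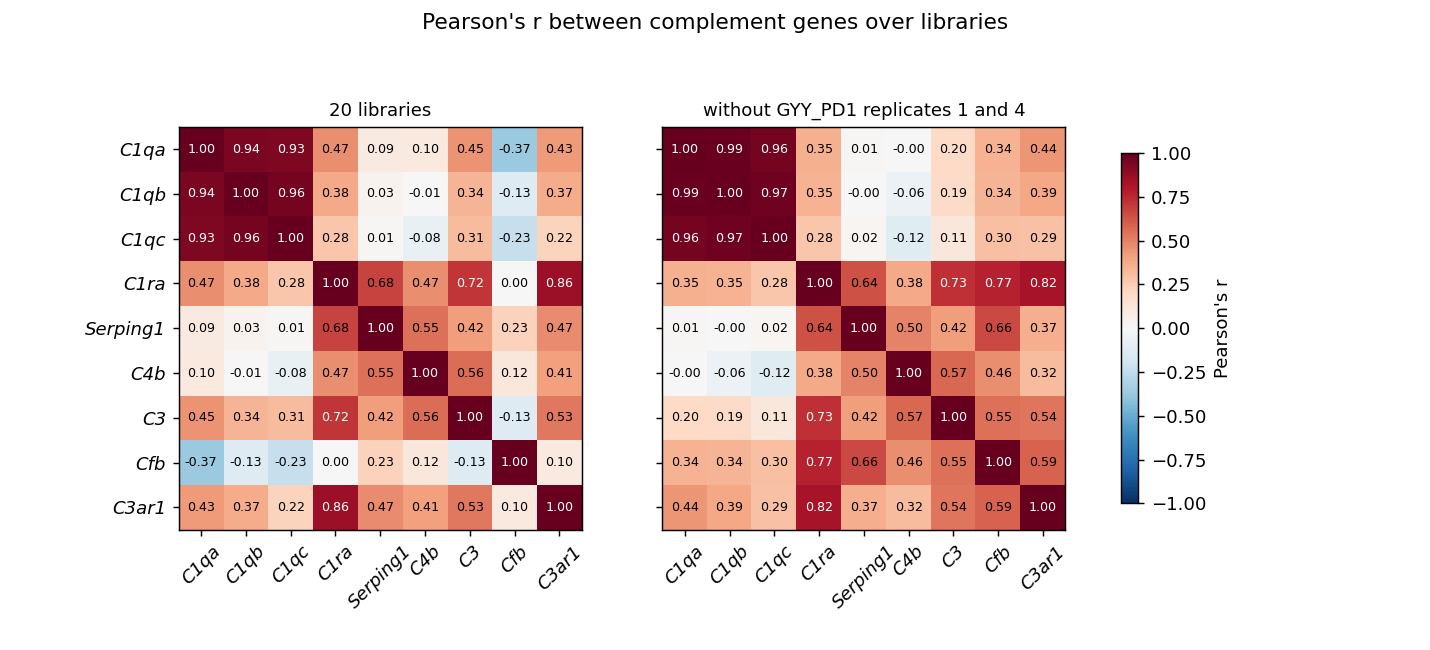
Pearson's r between the complement genes over 20 libraries (left) and without GYY_PD1 replicates 1 and 4 (right), from log2 TPM relative to the library median; colour and number give r. The C1q chains form a block of at least 0.93, and the column of Cfb turns from -0.37 to 0.34 for C1qa when the 2 libraries are left out.

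Markers of other sources were read beside these levels. Of the other cell type lists, 5 of 5 tested T cell markers, 6 of 6 endothelial, 6 of 8 fibroblast, 3 of 6 neutrophil and 4 of 6 kidney tubule markers had higher means in GYY_PD1 than in Veh_IgG, and none was called (37.6% of all tested genes had higher means). Without replicates 1 and 4 the counts were 5 of 5, 6 of 6, 7 of 8, 6 of 6 and 5 of 6. In that smaller comparison the median difference of all tested genes was -0.04 (log2). Of 5 hepatocyte markers none passed the filter, and their sum was at most 5.20 TPM in any library. That highest sum was in GYY_PD1 replicate 1, at 3.14 relative to the library median, where Serping1 stood at 3.30 (log2). The next highest sum was 2.03 TPM, in Veh_IgG replicate 4. The 14 interferon-gamma target genes all had higher means in GYY_PD1 than in Veh_IgG, 13 of them at an unadjusted p under 0.05, where 16.9% of tested genes were, and none called by limma. Their median difference was 1.57 with all libraries and without replicates 1 and 4. Of 11 type I interferon targets, 10 had higher means and 9 an unadjusted p under 0.05, with a median difference of 1.05 and none called. The summed relative level of the interferon-gamma targets ranged from 5.06 to 6.13 in GYY_PD1 and 3.93 to 4.53 in Veh_IgG. Over the 20 libraries the interferon-gamma list correlated with Cfb at r = 0.66 and with Serping1 at 0.47. The type I list correlated with them at 0.41 and 0.49, and the acute-phase and NF-kappa B list at 0.01 and 0.64. Without GYY_PD1 replicates 1 and 4 these were 0.60 and 0.61, 0.46 and 0.48, and 0.59 and 0.58. Over the 20 libraries the neutrophil list correlated with Cfb and Serping1 at -0.36 and 0.55, the T cell list at 0.58 and 0.22, and the tumour list at 0.16 and 0.54. Without those 2 libraries the values were 0.37 and 0.51 for the neutrophil list, 0.49 and 0.41 for the T cell list, and 0.57 and 0.50 for the tumour list. The negative correlation of Cfb with the neutrophil list thus depended on GYY_PD1 replicates 1 and 4. The part of any of these in the levels of Cfb or Serping1 was not tested.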

How the data were processed

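The deposited table holds log2 TPM, made by the authors from RNA-seq of 20 tumours, with 0 TPM written as -8.879 log2; per the submitters' processing notes the tools were HTSeq 0.11.0, Salmon 0.14.1, fastp and cutadapt with build mm10, and the role of each is not given in the sources used here. Raised back, each library summed to between 999797 and 1000219 TPM. TPM keep no depth, so no counting interval is given. Groups and replicates follow the labels, which do not say how the mice were housed or the RNA was batched.

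The 15422 genes that reached 1 TPM in 5 or more libraries were fitted by limma 3.58.1 (R 4.3.3) in a single model of all 4 groups, with trended variance and 16 residual degrees of freedom, on log2 TPM minus the library median of tested genes, with Benjamini-Hochberg adjustment over all tested genes and a threshold of 0.05. limma was tested on simulated data before use. Single genes were also compared with a two-sided exact permutation test, unadjusted, whose smallest p is 0.00794 for 5 against 5. Same-numbered replicates of different groups did not deviate together (r between -0.085 and 0.109 in 30 pairs), so they were not paired. Gene positions came from GENCODE M21, in which 33908 names were found, and promoters from RefSeq. Satellite-like models were found by a scan for tandem repeats of 225 to 240 bases among provisional genes averaging at least 50 TPM, chosen after seeing the data.

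The members and all gene lists were chosen with earlier results of these data known. Named genes are the 9 members, the 4 other complement genes with the highest mean TPM in each role, the 3 genes most correlated with each member, and up to 4 of the most abundant markers of a list. C4a was named by its likeness to C4b. Alternatives were other scalings, pseudocounts, filters and fits, and each library left out in turn. A listed gene is not reported here.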

Additional observations from a re-analysis of the deposited data

Results flagged for a closer look

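Serping1 in GYY_PD1 replicate 1 lay far from the other 4 tumours of its group. Its level relative to the library median was 3.297, against 4.90 to 5.55 in the others, and the gap to the nearest was 0.712 of the whole range of the group, above the critical value of 0.71 for 5 samples (Dixon's test). This was 1 flag in 36 groups checked (9 genes in 4 groups), where chance flags about 1 in 20. The same library had 8198 genes at 1 TPM or more and 5.27% of TPM in nuclear coding genes, and the part of either in the Serping1 value was not tested.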

How the results depend on the processing

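The count of complement genes called was 0 under every alternative run except the deposited scale, where it was 5 in GYY_PD1 against Veh_IgG; the fit of only the 2 groups compared was run for the 5 comparisons between groups, the other alternatives for all 8. Of 921 alternatives to the 27 differences from Veh_IgG, 875 kept direction and side of the threshold, 42 reversed (C1ra in GYY_PD1 on the deposited scale also passed the threshold) and 4 passed the threshold in the same direction, and 11 of the 27 differences never reversed. Outside the deposited scale the lowest adjusted p of a member was 0.0670 (Cfb in GYY_PD1 with a pseudocount of 1 TPM), against 0.254 to 0.99993 as reported. On the deposited scale, differences in GYY_PD1 were -1.68 for C1ra, -1.36 for C4b, -0.18 for Cfb, -0.85 for Serping1 and -1.63 for C3ar1; in GYY_IgG they were -0.23 for C1ra, -0.29 for C3, -0.35 for Cfb, -0.028 for Serping1 and -0.23 for C3ar1; in Veh_PD1 they were -0.49 for C4b and -0.43 for Serping1. The shift of the library median, by construction, lowers each of these. C3 in GYY_PD1, -0.01 as reported, was 0.14 with a filter of 5 TPM, 0.41 with array weights, 0.49 without GYY_PD1 replicates 1 and 4, 0.29 without the mice whose numbers lie apart from the rest, 0.54 when rescaled to coding genes without replicates 1 and 4 (chosen after seeing the data), and between -0.40 and 0.29 with single libraries left out. C1qa in GYY_PD1 was 0.015 when rescaled to coding genes without those 2 libraries. C4b in GYY_IgG was 0.031 with array weights, and Cfb in GYY_IgG was -0.22 with quantile normalization, -0.10 with array weights and -0.019 without the mice numbered apart. Cfb in Veh_PD1 was 0.29 with a pseudocount of 1 TPM. With single libraries left out, differences in GYY_IgG ran from -0.031 to 0.31 for C3, -0.0087 to 0.29 for C3ar1, -0.29 to 0.20 for C4b and -0.22 to 0.24 for Cfb, and Cfb in Veh_PD1 from -0.41 to 0.21. The cause of these reversals, apart from the deposited scale, was not tested. With the replicate number as a block, although the numbers do not pair the samples, the count of complement genes called was 0 in each of the 8 comparisons, and 3 of all tested genes were called in GYY_PD1 against Veh_IgG, against 0 without the block.

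All genes called in GYY_PD1 against Veh_IgG numbered 0 as reported, 41 with a pseudocount of 1 TPM, 13 with no filter on low values, 2 without the variance trend, 18 with array weights, 8 with only the 2 groups in the fit and 10831 on the deposited scale. Depth is unknown and Cfb lies near 1 TPM, so its relative values are the least certain of the 9.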
